A study of Mus musculus with 8 samples.

Results

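The myeloid C-type lectin receptors described here are Clec4e, Clec4d, Clec4n, Clec7a, Clec5a, Clec12a and Clec4a2, chosen by gene symbol. They are 7 of the 24421 genes in a table of expression in macrophages grown from mouse bone marrow (BMMs). The 4 groups were Rbpj knockout BMMs with TNF at 40 ng/ml for 2 days, wild-type (WT) BMMs with the same TNF, knockout BMMs at day 0 without TNF, and WT BMMs at day 0 without TNF. The knockout mice were Rbpj f/f;LysMCre, so that Cre from the LysM (Lyz2) locus deletes the floxed Rbpj gene in myeloid cells, and what alleles the WT mice carried beyond the label WT is not given in the sources used here. Rbpj encodes RBP-J, the transcription factor through which Notch receptors act. Each group held 2 poly-A RNA libraries, and the series' design states 2 independent experiments. Since no cells were cultured for 2 days in the absence of TNF, TNF and time in culture cannot be told apart, and wherever TNF is named below both are meant.

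C-type lectin receptors let macrophages sense microbial sugars and lipids and the debris of dying cells. The activating ones signal through the tyrosine kinase Syk, either by pairing with the adaptors FcRγ (Fcer1g) or DAP12 (Tyrobp) or through a motif in their own tail, and Syk then acts through the Card9, Bcl10 and Malt1 complex on NF-κB. The inhibitory ones carry a tail motif that recruits phosphatases such as SHP-1 (Ptpn6). Clec4e (Mincle) binds mycobacterial cord factor, Clec4d (MCL) is its partner on the cell surface, Clec4n (Dectin-2) binds mannans and Clec7a (Dectin-1) binds β-glucans of fungi. Clec5a (MDL-1) signals through DAP12, and Clec12a (MICL) and Clec4a2 (DCIR) are the inhibitory receptors of the set.

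All 7 genes lie on mouse chromosome 6 (GRCm38, GENCODE M21). Clec4a2 (ENSMUSG00000030148.15, chr6:123106428-123143999, plus strand), Clec4n (ENSMUSG00000023349.14, chr6:123229843-123247021, plus strand), Clec4d (ENSMUSG00000030144.4, chr6:123262111-123275265, plus strand) and Clec4e (ENSMUSG00000030142.10, chr6:123281789-123289870, minus strand) share a span of 183 kb that holds 5 genes of the table. Clec4d and Clec4e end 6523 bases apart, on opposite strands. Clec12a (ENSMUSG00000053063.11, chr6:129342691-129365303, plus strand) and Clec7a (ENSMUSG00000079293.11, chr6:129461591-129472779, minus strand) lie further along the chromosome, in a span of 130 kb, and the annotation types Clec7a as a polymorphic pseudogene and the other 6 as protein coding. Clec5a (ENSMUSG00000029915.14, chr6:40574894-40585821, minus strand) stands alone. No receptor shared exonic bases with another gene, but Clec4a2 has close sequence relatives next to it, and how reads shared between such copies were counted was not stated, so its level is uncertain.

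The 250 bases before the transcription start of 3 receptors follow, 5′ to 3′ on the strand of the gene, from RefSeq with build GRCm38.p6. They are shown because they stand for the range of responses described below: Clec4e rose in both genotypes with TNF, its neighbour Clec4d did not pass in limma between TNF and day 0 with all 8 libraries, and Clec12a passed in no comparison. Capitals mark a match to the C/EBP motif TTGCNNAA. The Clec4e window is chr6:123289872-123290121 (minus strand), the Clec4d window chr6:123261857-123262106 (plus strand) and the Clec12a window chr6:129349994-129350243 (plus strand). The RefSeq start of Clec12a lies inside the GENCODE span of the gene given above, and so does its window.
Clec4e: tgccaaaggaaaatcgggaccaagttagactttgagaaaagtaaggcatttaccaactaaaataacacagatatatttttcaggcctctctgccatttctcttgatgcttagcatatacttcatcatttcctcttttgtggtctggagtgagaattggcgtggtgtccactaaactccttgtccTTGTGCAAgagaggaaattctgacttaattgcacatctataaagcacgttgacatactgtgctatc
Clec4d: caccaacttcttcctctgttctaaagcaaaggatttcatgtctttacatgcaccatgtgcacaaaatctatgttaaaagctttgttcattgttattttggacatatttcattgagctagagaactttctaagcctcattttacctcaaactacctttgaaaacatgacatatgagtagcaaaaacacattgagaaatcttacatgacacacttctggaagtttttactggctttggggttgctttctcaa
Clec12a: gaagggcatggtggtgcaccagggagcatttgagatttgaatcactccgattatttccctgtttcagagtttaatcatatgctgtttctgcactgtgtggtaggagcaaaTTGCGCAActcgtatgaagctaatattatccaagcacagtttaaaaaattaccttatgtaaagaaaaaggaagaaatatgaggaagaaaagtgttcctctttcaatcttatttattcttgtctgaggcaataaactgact

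Both strands of the windows of 6 receptors were searched for 6 motifs. Clec4e had the C/EBP match 66 bases before its start, read on the opposite strand, and Clec12a had one, the same on both strands, 140 bases before its start. Of all 32851 promoter windows of this length, 9.56% held that motif. The Clec4d window held only the PU.1 core GAGGAA, 240 bases before the start, a core found in 23.3% of all windows and also in the windows of Clec4e, Clec7a, Clec5a and Clec12a. Clec12a held the AP-1 motif TGANTCA (6.75% of all windows) and Clec4a2 the GAS motif TTCNNNGAA (7.02%). The Clec4a2 window, like that of Clec12a, lies inside the GENCODE span of its gene. Neither the κB motif (7.25% of all windows) nor the RBP-J core TGGGAA (21.6%) was found in the window of any of the 6. A match is a description of the letters only.

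Depth was 9855859 to 35653203 reads per library, and the receptors had between 463 and 200580 reads each in every library, so all 7 passed the filter on low values (at least 1 CPM in at least 2 libraries). CPM are read counts scaled to the total counted in genes of each library. The targeted gene, Rbpj, had 30.0 and 21.4 CPM in knockout BMMs with TNF, against 226 and 178 CPM in WT BMMs with TNF, and 38.9 and 31.8 CPM in knockout BMMs at day 0, against 215 and 216 CPM in WT BMMs at day 0, which goes with the labels. The 7 macrophage markers chosen (Adgre1, Csf1r, Cd68, Itgam, Lyz2, Cd14 and Mertk) were detected in all 4 groups, with sums of 4900 and 6191 CPM in knockout BMMs with TNF, 7040 and 7640 CPM in WT BMMs with TNF, 5271 and 8746 CPM in knockout BMMs at day 0 and 5358 and 6620 CPM in WT BMMs at day 0. Values given as pairs are those of replicates 1 and 2, in that order. In bulk samples, fewer cells of a type and less RNA per cell cannot be told apart.

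Replicates 1 and 2 stood apart in every group. All 7 receptors were higher in replicate 2 than in replicate 1 in all 4 groups, as were 22.7% of all genes tested. For Clec7a the difference was 2.54 on the log2 scale in knockout BMMs with TNF, 3.62 in WT BMMs with TNF, 2.46 in knockout BMMs at day 0 and 2.33 in WT BMMs at day 0. For Clec4d in knockout BMMs with TNF it was 0.04. Among markers of other cells, the sum of 11 neutrophil markers was 35.5 and 50.9 CPM in knockout BMMs with TNF, 61.8 and 140 CPM in WT BMMs with TNF, 191 and 1027 CPM in knockout BMMs at day 0 and 148 and 848 CPM in WT BMMs at day 0. It was thus higher in replicate 2 of each group, as the receptors were, and higher at day 0 than with TNF. Of these 11 genes 9 were lower with TNF in knockout BMMs and 7 in WT BMMs with the block described below (5 and 1 without it). Of all genes, 13.7% were lower in knockout and 4.71% in WT BMMs with the block (245 and 45 of 12194 without it). Retnlg, a mature neutrophil marker, was at 0 in all 4 libraries with TNF. Itgax was the highest of 8 dendritic cell markers in every library. Their sum was 99.8 and 395 CPM in knockout BMMs with TNF, 58.5 and 566 CPM in WT BMMs with TNF, 20.4 and 107 CPM in knockout BMMs at day 0 and 13.5 and 21.5 CPM in WT BMMs at day 0, with Cd209a at 0 in knockout TNF replicate 2. Itgax alone had 94.6 and 366 CPM in knockout BMMs with TNF and 13.2 and 72.1 CPM in knockout BMMs at day 0. In WT BMMs it had 55.7 and 555 CPM with TNF and 9.04 and 17.1 CPM at day 0. Siglech was lower with TNF in knockout BMMs (-2.34, limma adjusted p = 0.142 without the block and 0.0198 with it). The 5 stromal markers were instead higher in replicate 1, from 116 to 177 CPM in the replicate 1 libraries and from 3.91 to 32.0 CPM in the replicate 2 libraries. Markers of T and NK cells (at most 8.27 CPM), B cells (at most 10.2 CPM) and mast cells (at most 2.74 CPM, with Cma1 at 0 in all 8 libraries) were low. The part of any of these cells in the receptor levels was not tested.

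**Figure D1:**
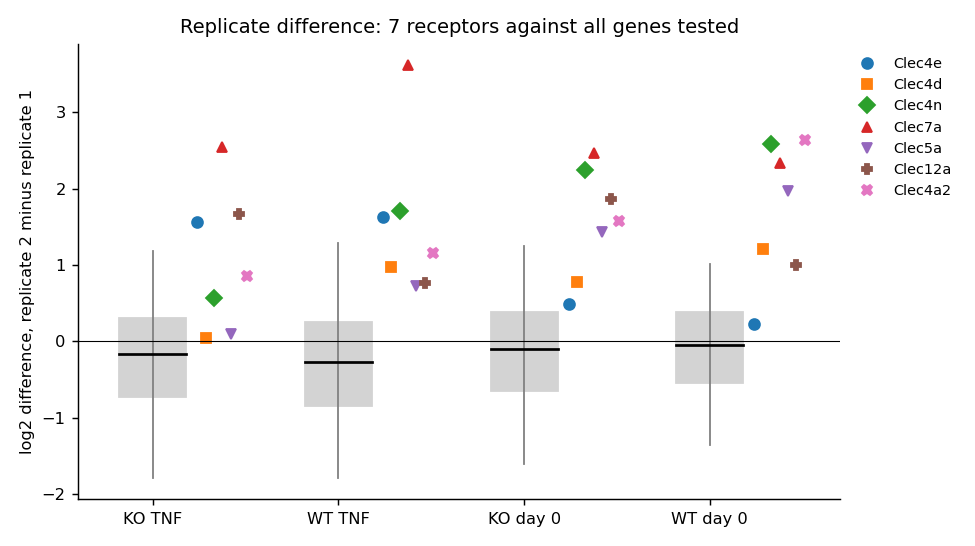
Difference between replicate 2 and replicate 1 of each receptor (coloured symbols, log2 scale), by group, beside all genes tested (grey box, middle 50% with its median line; thin line, 5th to 95th percentile). All receptor symbols lie above 0, and in WT BMMs with TNF Clec7a reached 3.62.

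Because of this difference, each comparison was fitted both without and with a block for replicate number, which sets libraries of the same number against each other. Log2 differences below are those of log2(CPM + 0.5), with the standard error (SE) of the limma fit without the block (n = 2 libraries a group), and a gene passed where its Benjamini-Hochberg adjusted p over 12194 genes was under 0.05.

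With TNF, Clec4e rose in both genotypes. It had 857 and 2526 CPM in knockout BMMs with TNF, against 29.8 and 41.8 CPM in knockout BMMs at day 0, a log2 difference of 5.36 ± 0.67 (adjusted p = 0.0111, limma), or about 41.1-fold. In WT BMMs it had 2742 and 8506 CPM with TNF, against 45.2 and 53.0 CPM at day 0, a log2 difference of 6.61 ± 0.67 (adjusted p = 0.0173, limma), or about 97.7-fold. The groups did not overlap in either genotype. The size of the difference depended on the replicate. Without the block it was 6.14 without knockout TNF replicate 1 and 4.58 without knockout TNF replicate 2 in knockout BMMs, and 7.43 without WT TNF replicate 1 and 5.79 without WT TNF replicate 2 in WT BMMs. By CPM, Clec4e stood at places 14 and 6 of all genes in WT BMMs with TNF, and at places 117 and 23 in knockout BMMs with TNF. It was the only one of the 7 receptors to pass without the block in knockout BMMs, where 3.09% of all genes passed as higher, and in WT BMMs, where 0.812% did. Without the block the call was lost when some single libraries were left out: in knockout BMMs without knockout day 0 replicate 1 (adjusted p = 0.0610), knockout day 0 replicate 2 (0.0685) or knockout TNF replicate 2 (0.0640), and in WT BMMs without WT day 0 replicate 1 (0.138), WT day 0 replicate 2 (0.158) or WT TNF replicate 2 (0.0994). With the block both calls held in each of the 8 fits that left out 1 library (adjusted p at most 0.00929 in knockout and 0.0128 in WT BMMs).

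In limma, Clec4n, Clec7a and Clec5a passed as higher with TNF in WT BMMs with the block and not without it, while DESeq2 without the block called Clec4n (4.02, adjusted p = 0.00306). Clec4n had 403 and 1313 CPM in WT BMMs with TNF, against 16.9 and 104 CPM in WT BMMs at day 0 (log2 difference 4.09 ± 1.08, limma adjusted p = 0.168 without the block and 0.00449 with it), and these groups did not overlap. In knockout BMMs Clec4n had 324 and 481 CPM with TNF, against 58.1 and 278 CPM at day 0 (1.63 ± 1.08, limma adjusted p = 0.50 without the block and 0.0404 with it). Clec7a had 101 and 1248 CPM in WT BMMs with TNF, against 22.6 and 115 CPM in WT BMMs at day 0 (2.78 ± 1.55, limma adjusted p = 0.597 without the block and 0.00532 with it). Those groups overlapped, since WT TNF replicate 1 was below WT day 0 replicate 2. In knockout BMMs Clec7a had 123 and 719 CPM with TNF, against 105 and 583 CPM at day 0, a log2 difference of 0.26 ± 1.55 that passed neither way. Clec5a had 299 and 496 CPM in WT BMMs with TNF, against 50.4 and 199 CPM in WT BMMs at day 0 (1.93 ± 0.73, limma adjusted p = 0.345 without the block and 0.0367 with it). In knockout BMMs Clec5a had 170 and 182 CPM with TNF, against 69.9 and 190 CPM at day 0 (0.61 ± 0.73), and there the replicate pairs differed in sign, at 1.28 and -0.06.

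With the block, 2 of the 7 receptors passed as higher in knockout BMMs, against 12.2% of all genes, and 4 of 7 in WT BMMs, against 5.54% of all genes. None passed as lower, where 13.7% of all genes did in knockout and 4.71% in WT BMMs. Higher with TNF without overlap between the groups were 2 receptors in knockout BMMs (20.4% of all genes), Clec4e and Clec4n, and 4 in WT BMMs (14.8% of all genes), Clec4e, Clec4d, Clec4n and Clec5a. Some of these calls were lost when 1 library was left out, which also leaves fewer libraries to estimate the spread. Where that library was of the other genotype, the log2 difference itself was unchanged (1.93 for Clec5a in WT BMMs, 1.63 for Clec4n in knockout BMMs). With the block and 1 library left out, the log2 difference lay between 3.55 and 4.64 for Clec4n, between 2.19 and 3.37 for Clec7a and between 1.32 and 2.54 for Clec5a in WT BMMs, and between 0.83 and 2.44 for Clec4n in knockout BMMs. In WT BMMs Clec4n passed with the block unless WT TNF replicate 2 was left out (adjusted p = 0.0506), and Clec7a passed whichever library was left out. Clec5a did not pass without WT TNF replicate 1 (0.152), WT TNF replicate 2 (0.162), WT day 0 replicate 1 (0.111), knockout day 0 replicate 1 (0.0576) or knockout day 0 replicate 2 (0.0575). The knockout call of Clec4n was lost without knockout TNF replicate 1 (0.109), knockout day 0 replicate 1 (0.199), knockout day 0 replicate 2 (0.112), WT TNF replicate 1 (0.0708) or WT TNF replicate 2 (0.0702).

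Clec4d, the partner of Clec4e, had 306 and 314 CPM in knockout BMMs with TNF, against 227 and 390 CPM in knockout BMMs at day 0, a log2 difference of 0.06 ± 0.52 with the TNF libraries inside the range of day 0. In WT BMMs it had 738 and 1449 CPM with TNF, against 301 and 698 CPM at day 0 (1.17 ± 0.52, limma adjusted p = 0.455 without the block and 0.0513 with it). Those groups did not overlap, and the log2 difference was 1.29 in pair 1 and 1.05 in pair 2. With the block Clec4d passed there without knockout TNF replicate 1 (adjusted p = 0.0166) or knockout TNF replicate 2 (0.0171), and in edgeR with the block on all 8 libraries (0.0475). The receptors with inhibitory tails passed in neither genotype. Clec12a had 192 and 611 CPM in knockout BMMs with TNF, against 138 and 502 CPM at day 0 (0.38 ± 0.79), and 235 and 397 CPM in WT BMMs with TNF, against 189 and 378 CPM at day 0 (0.19 ± 0.79). Clec4a2 had 158 and 286 CPM in knockout BMMs with TNF, against 93.7 and 281 CPM at day 0 (0.39 ± 0.95), and 102 and 228 CPM in WT BMMs with TNF, against 46.1 and 290 CPM at day 0 (0.40 ± 0.95).

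**Figure D2:**
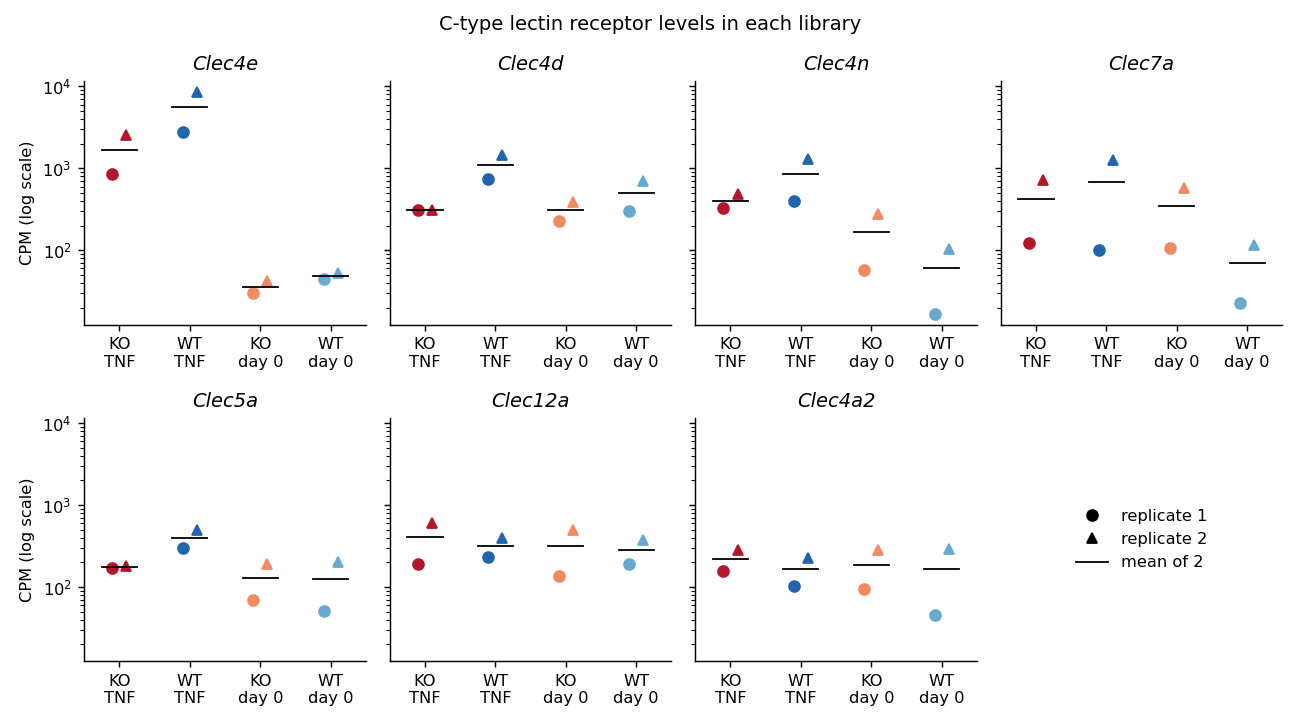
CPM of each receptor (log axis) in every library, by group (circles, replicate 1; triangles, replicate 2; lines, the mean of 2). Clec4e lies between 29.8 and 53.0 CPM at day 0 and between 857 and 8506 CPM with TNF, while the Clec12a and Clec4a2 groups overlap.

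The median log2 difference of the 7 receptors was 0.39 in knockout BMMs, where that of all genes was -0.10, and 1.93 in WT BMMs, where that of all genes was -0.12. A log2 difference of at least 1 in both replicate pairs was reached as an increase by 1 receptor in knockout BMMs (7.93% of all genes), which was Clec4e, and by 5 in WT BMMs (5.44% of all genes). In those 5 are Clec4e, Clec4d, Clec4n, Clec7a and Clec5a, the activating receptors of the set.

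The next comparison set knockout against WT BMMs after TNF. Clec4e and Clec4d were lower in the knockout, at 0.305 and 0.300 times the WT level, in the comparison of libraries of the same replicate number. Clec4e had 857 and 2526 CPM in knockout BMMs with TNF and 2742 and 8506 CPM in WT BMMs with TNF (log2 difference -1.71 ± 0.67, limma adjusted p = 0.409 without the block and 0.0425 with it), with -1.68 in pair 1 and -1.75 in pair 2. Clec4d had 306 and 314 CPM in knockout BMMs with TNF and 738 and 1449 CPM in WT BMMs with TNF (-1.74 ± 0.52, limma adjusted p = 0.273 without the block and 0.0241 with it), with -1.27 in pair 1 and -2.21 in pair 2. Neither gene's groups overlapped. Clec5a had no overlap either, at 170 and 182 CPM in knockout and 299 and 496 CPM in WT BMMs (-1.13 ± 0.73, limma adjusted p = 0.711 without the block and 0.142 with it). Groups that did not overlap, with the knockout lower, were found for these 3 receptors and for 16.1% of all genes, and a decrease of at least 1 in both pairs for Clec4e and Clec4d and for 2.9% of all genes.

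None of the 7 receptors passed without the block in that comparison, where 0.0082% of all genes did. An unadjusted p under 0.05 was found for 2 receptors, and the share of all genes at that cutoff is not given here. With the block 2 of 7 passed, both lower, against 3.75% of all genes passing as lower. Both calls were lost in some of the fits that left out 1 library, which also have fewer libraries to estimate the spread. Without knockout day 0 replicate 1 the log2 differences themselves were unchanged, at -1.71 for Clec4e and -1.74 for Clec4d. With 1 library left out and the block, the log2 difference of Clec4e was -1.33 without knockout TNF replicate 1, -2.10 without knockout TNF replicate 2, -2.15 without WT TNF replicate 1 and -1.28 without WT TNF replicate 2, and over all fits with 1 library left out, with or without the block, it lay between -2.53 and -0.90. That of Clec4d lay between -2.22 and -1.25. Clec4e was lost without knockout TNF replicate 1 (adjusted p = 0.124), knockout TNF replicate 2 (0.132), knockout day 0 replicate 1 (0.0654), knockout day 0 replicate 2 (0.0657), WT TNF replicate 1 (0.0629) or WT TNF replicate 2 (0.291), and in edgeR with the block (0.0802). Clec4d was lost without knockout TNF replicate 2 (0.112), knockout day 0 replicate 1 (0.0501), WT TNF replicate 1 (0.0640) or WT TNF replicate 2 (0.197), and passed in edgeR with the block (0.0370). Without knockout TNF replicate 1, Clec4n (0.0303) and Clec5a (0.0446) passed with the block as well.

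The other receptors did not pass in the comparison of knockout with WT BMMs after TNF. Clec4n had a log2 difference of -0.88 ± 1.08, Clec7a of -0.26 ± 1.55, Clec12a of 0.17 ± 0.79 and Clec4a2 of 0.47 ± 0.95, and all these groups overlapped. The median over the 7 receptors was -0.88, beside 0.02 over all genes. Moving with this comparison were 9 osteoclast markers, summing to 18498 and 44202 CPM in knockout BMMs with TNF and 6559 and 4905 CPM in WT BMMs with TNF. With the block 9 of 9 passed as higher in the knockout, as did 674 of the 12194 genes tested. Without the block 0 of the 9 passed. Of the 7 macrophage markers, Cd14 (-1.61 ± 0.62, limma adjusted p = 0.394 without the block and 0.0201 with it) and Lyz2 (-1.45 ± 0.86, limma adjusted p = 0.659 without the block and 0.0481 with it) were lower in the knockout, as were 3.75% of all genes with the block. Lyz2 is the locus that carries Cre and has a close copy, Lyz1, so its level is uncertain. The part of a change in cell type in the receptor differences was not tested.

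At day 0 no receptor passed between knockout and WT BMMs, in limma without the block (0% of all genes) or with it (0.0082% of all genes). At an unadjusted p under 0.05 there were 0 receptors without the block and 2 with it, Clec4n and Clec7a, and edgeR gave the same 0 and 2, with DESeq2 at 0. The share of all genes under that unadjusted cutoff is not given here, so these counts cannot be called more or less than usual. Clec7a had 105 and 583 CPM in knockout BMMs and 22.6 and 115 CPM in WT BMMs, a log2 difference of 2.26 ± 1.55 that was 2.20 in pair 1 and 2.33 in pair 2 (with the block, SE 0.32 and limma adjusted p = 0.271). Clec4n had 58.1 and 278 CPM in knockout BMMs and 16.9 and 104 CPM in WT BMMs (1.58 ± 1.08, with 1.75 in pair 1 and 1.41 in pair 2, and with the block an SE of 0.45 and limma adjusted p = 0.570). An increase of at least 1 in both pairs was found for these 2 receptors and for 0.951% of all genes. Clec4e had 29.8 and 41.8 CPM in knockout BMMs and 45.2 and 53.0 CPM in WT BMMs, without overlap (-0.47 ± 0.67), and 8.66% of all genes were lower in the knockout without overlap. Log2 differences of the other 4 receptors lay between -0.62 and 0.49.

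**Figure D3:**
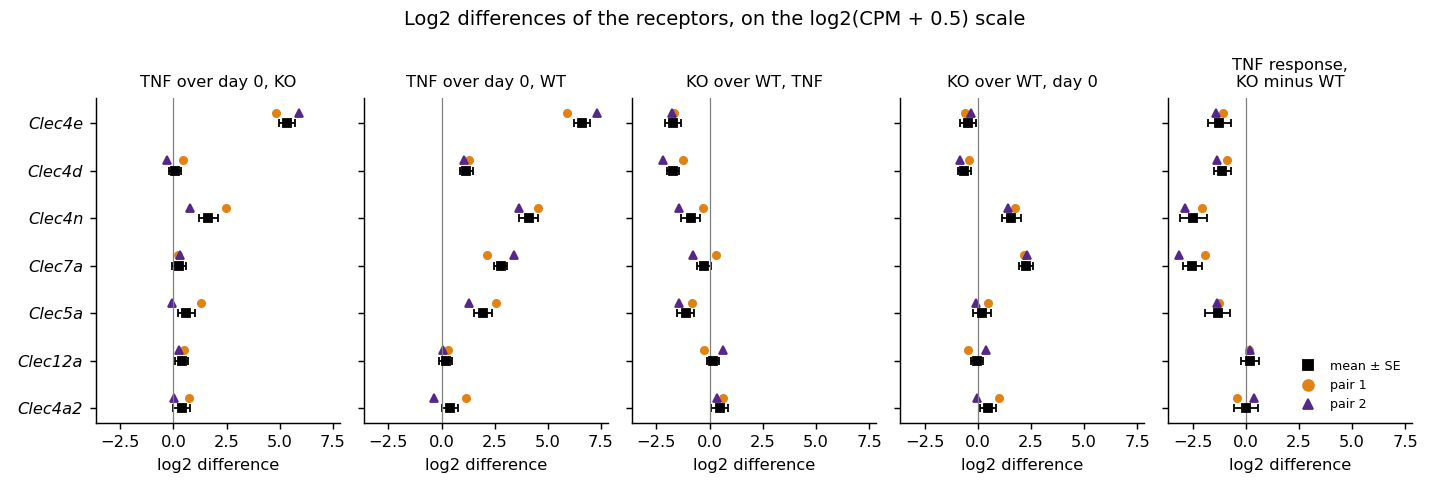
Log2 differences of the receptors in the 5 comparisons (squares, mean of the pairs with the SE of the fit with the block; circles, replicate pair 1; triangles, replicate pair 2). Both pairs of Clec4e and Clec4d lie below 0 for knockout over WT with TNF, and both pairs of Clec4n and Clec7a lie above 1 for knockout over WT at day 0.

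Whether the TNF response itself differed with genotype was tested as the difference of the differences, knockout minus WT. No receptor passed, nor did any gene, in limma without or with the block (0% of all genes). At an unadjusted p under 0.05 there were 0 receptors without the block in limma, edgeR and DESeq2, and 3 with the block in limma and in edgeR, namely Clec4d, Clec4n and Clec7a. Here too the share of all genes at that cutoff is not given, so the counts cannot be weighed against it. On the log2 scale Clec7a had -2.52 ± 2.19 (with the block, SE 0.45 and limma adjusted p = 0.104), Clec4n -2.46 ± 1.53 (0.63 and 0.139), Clec5a -1.33 ± 1.03 (0.59 and 0.307), Clec4e -1.25 ± 0.95 (0.53 and 0.290) and Clec4d -1.11 ± 0.74 (0.40 and 0.224). All 5 were below 0 in both replicate pairs, and 4 of them, against 3.36% of all genes, were at -1 or lower in both. Clec12a (0.19 ± 1.12) and Clec4a2 (-0.01 ± 1.35) lay near 0. Clec4n passed with the block when knockout TNF replicate 1 was left out (-3.27, limma adjusted p = 0.0265). Side by side, Clec4n and Clec7a had their larger genotype difference at day 0, with the knockout higher, and Clec4e and Clec4d had theirs after TNF, with the knockout lower.

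Taking the receptors together, they summed to 2130 and 5118 CPM in knockout BMMs with TNF (0.213% and 0.512% of reads), 4619 and 13637 CPM in WT BMMs with TNF (0.462% and 1.36%), 721 and 2265 CPM in knockout BMMs at day 0 and 671 and 1837 CPM in WT BMMs at day 0. Clec4e made up 40.3% and 49.4% of that sum in knockout BMMs with TNF and 59.4% and 62.4% in WT BMMs with TNF. At day 0 it made up 4.13% and 1.85% in knockout BMMs and 6.74% and 2.89% in WT BMMs. The ratio of Clec4e to Clec4d CPM was 2.80 and 8.05 in knockout BMMs with TNF, 3.72 and 5.87 in WT BMMs with TNF, 0.131 and 0.107 in knockout BMMs at day 0 and 0.150 and 0.0760 in WT BMMs at day 0. It was above 1 in all 4 libraries with TNF and below 1 in all 4 at day 0.

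Levels per kilobase of merged exons compare genes only roughly, since every annotated exon counts whether or not the transcripts present held it. On that scale Clec4e had the lowest mean of the 7 at day 0, with 7.21 CPM per kb in knockout and 9.89 CPM per kb in WT BMMs, and the highest with TNF, with 341 CPM per kb in knockout and 1133 CPM per kb in WT BMMs. In knockout BMMs with TNF the order after Clec4e was Clec4n (283 CPM per kb), Clec4d (194), Clec7a (159), Clec4a2 (75.8), Clec12a (72.7) and Clec5a (45.8). In replicate 1 of that group Clec4n (228 CPM per kb) and Clec4d (191) were both above Clec4e (173). In WT BMMs with TNF the order was Clec4e, Clec4d (684 CPM per kb), Clec4n (604), Clec7a (256), Clec5a (103), Clec12a (57.1) and Clec4a2 (56.5). In knockout BMMs at day 0, Clec4d (193 CPM per kb), Clec7a (130), Clec4n (118), Clec4a2 (64.0), Clec12a (57.9) and Clec5a (33.8) stood above Clec4e, and in WT BMMs at day 0 Clec4d (312), Clec4a2 (57.4), Clec12a (51.2), Clec4n (42.6), Clec5a (32.5) and Clec7a (26.2) did. Every receptor's range overlapped that of its neighbour in these orders, except Clec4n and Clec4d in knockout BMMs with TNF, Clec5a and Clec12a in WT BMMs with TNF, Clec5a and Clec4e in knockout BMMs at day 0 and Clec4d and Clec4a2 in WT BMMs at day 0.

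The genes around the receptors did not all move with them. Of the 9 lectin genes of the Clec4 cluster, in the order Clec4a1, Clec4a3, Clec4a4, Clec4b1, Clec4a2, Clec4b2, Clec4n, Clec4d and Clec4e, 5 had a TNF difference above 0 in knockout BMMs and 6 in WT BMMs. Above 0 were 43.0% of all genes in knockout and 38.9% in WT BMMs. The counts include 4 of the receptors, all above 0. Apart from these, only Clec4a4 was above 0 in knockout BMMs, and only Clec4a1 and Clec4a4 in WT BMMs. Clec4b1, an activating relative, had a TNF difference of -3.04 in knockout BMMs (limma adjusted p = 0.0648 without the block and 0.00802 with it) and of -1.82 in WT BMMs (0.0684 with the block). Its levels were low, at 0.203 and 0.316 CPM in knockout BMMs with TNF, against 3.47 and 9.24 CPM at day 0. In WT BMMs Clec4b1 had 0.224 and 0.254 CPM with TNF, against 0.875 and 4.49 CPM at day 0. Clec4a3 and Clec4a1, relatives of Clec4a2, had -1.82 (limma adjusted p = 0.00930 with the block) and -1.29 (0.0324 with the block) in knockout BMMs, against -0.02 and 0.92 in WT BMMs, which did not pass. Shared sequence among the Clec4a and Clec4b copies makes their levels uncertain. Around Clec12a and Clec7a, 9 of 14 lectin genes passed the filter, and 5 of the 9 had a TNF difference above 0 in knockout BMMs and 6 in WT BMMs. These counts include Clec12a and Clec7a themselves, both above 0 in each genotype. Olr1, the oxidised LDL receptor, had a TNF difference of 2.83 in knockout BMMs (limma adjusted p = 0.00718 with the block) and 4.28 in WT BMMs (0.0955 without the block, 0.00416 with it). Cd69, an activation antigen, had 2.17 in knockout BMMs (limma adjusted p = 0.00537 with the block) and 2.10 in WT BMMs (0.0124 with the block). Clec1b, the platelet receptor CLEC-2, had -1.24 in knockout BMMs (limma adjusted p = 0.0325 with the block) and -0.53 in WT BMMs, which did not pass. It was also low, at 0.304 and 1.53 CPM in knockout BMMs with TNF, against 1.18 and 4.89 CPM at day 0. Clec2d, a ligand of NK cell receptors, had 1.61 in knockout BMMs (0.0248 with the block) and 1.33 in WT BMMs (0.0745 with the block).

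Other C-type lectin and lectin-like genes, a list of 48 of which 28 passed the filter, are described by their counts. Without the block 0 were higher and 2 lower with TNF in knockout BMMs and 0 higher and 1 lower in WT BMMs. With the block it was 5 higher and 10 lower in knockout BMMs, where 12.2% of all genes were higher and 13.7% lower, and 4 higher and 5 lower in WT BMMs, where 5.54% were higher and 4.71% lower. Their median log2 difference was -1.08 in knockout and -0.26 in WT BMMs. Mrc1, the mannose receptor, had 59.7 and 88.1 CPM in knockout BMMs with TNF, against 881 and 892 CPM at day 0 (-3.60 ± 0.28, limma adjusted p = 0.00457), and 106 and 87.2 CPM in WT BMMs with TNF, against 1137 and 1457 CPM at day 0 (-3.74 ± 0.28, limma adjusted p = 0.010). Cd93 fell by 3.34 on the log2 scale in knockout BMMs (limma adjusted p = 0.0215), and had -2.72 in WT BMMs (0.0753 without the block, 0.00811 with it). Ly75 (DEC-205), an endocytic receptor, had 2.85 in knockout and 3.75 in WT BMMs (limma adjusted p = 0.124 and 0.121 without the block, 0.00152 and 0.00147 with it). Between knockout and WT BMMs after TNF, only Cd302 of the 28 passed with the block, at 80.2 and 96.9 CPM in knockout and 204 and 333 CPM in WT BMMs (-1.56 ± 0.47, limma adjusted p = 0.273 without the block and 0.0201 with it). A count of 1 in 28 is near the share of all genes that passed as lower there with the block, 3.75%.

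Downstream of the receptors, 27 adaptor and kinase genes passed the filter. Without the block 1 was higher with TNF in each genotype, Src, a tyrosine kinase, with 5.85 ± 0.76 in knockout BMMs (limma adjusted p = 0.0129) and 5.37 ± 0.76 in WT BMMs (0.0376). With the block 3 were higher and 8 lower in knockout BMMs and 7 higher and 2 lower in WT BMMs. Of all genes, 12.2% were higher and 13.7% lower in knockout BMMs with the block, and 5.54% and 4.71% in WT BMMs. Without the block 3.09% were higher in knockout and 0.812% in WT BMMs. Malt1, the protease of the Card9 complex, had 129 and 265 CPM in knockout BMMs with TNF, against 32.1 and 42.7 CPM at day 0 (2.31 ± 0.62, limma adjusted p = 0.0917 without the block and 0.00741 with it). In WT BMMs Malt1 had 151 and 527 CPM with TNF, against 32.1 and 37.4 CPM at day 0 (3.0 ± 0.62, limma adjusted p = 0.0907 without the block and 0.00668 with it). Its partners Card9 (-0.17 in knockout and 0.00 in WT BMMs) and Bcl10 (-0.08 and 0.49) passed in neither. Fcer1g, the adaptor of Clec4e, Clec4d and Clec4n, had 305 and 410 CPM in knockout BMMs with TNF, against 551 and 766 CPM at day 0 (-0.88 ± 0.33, limma adjusted p = 0.212 without the block and 0.0132 with it), and 430 and 671 CPM in WT BMMs with TNF, against 472 and 564 CPM at day 0 (0.06 ± 0.33). Syk had 664 and 726 CPM in knockout BMMs with TNF, against 407 and 350 CPM at day 0, and 531 and 823 CPM in WT BMMs with TNF, against 360 and 236 CPM at day 0, and passed in neither genotype (with the block, limma adjusted p = 0.0717 in knockout and 0.0539 in WT BMMs). Card9, Bcl10, Fcer1g and Syk were named for their place in the pathway, after their values were seen. After TNF 2 genes of this list were lower in knockout than in WT BMMs with the block, Prkcd, the kinase that activates Card9 (-0.93 ± 0.25, limma adjusted p = 0.234 without the block and 0.0438 with it), and Blnk, a Syk substrate (-0.87 ± 0.23, 0.229 and 0.0402). Of all genes 3.75% passed as lower there with the block.

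**Figure D4:**
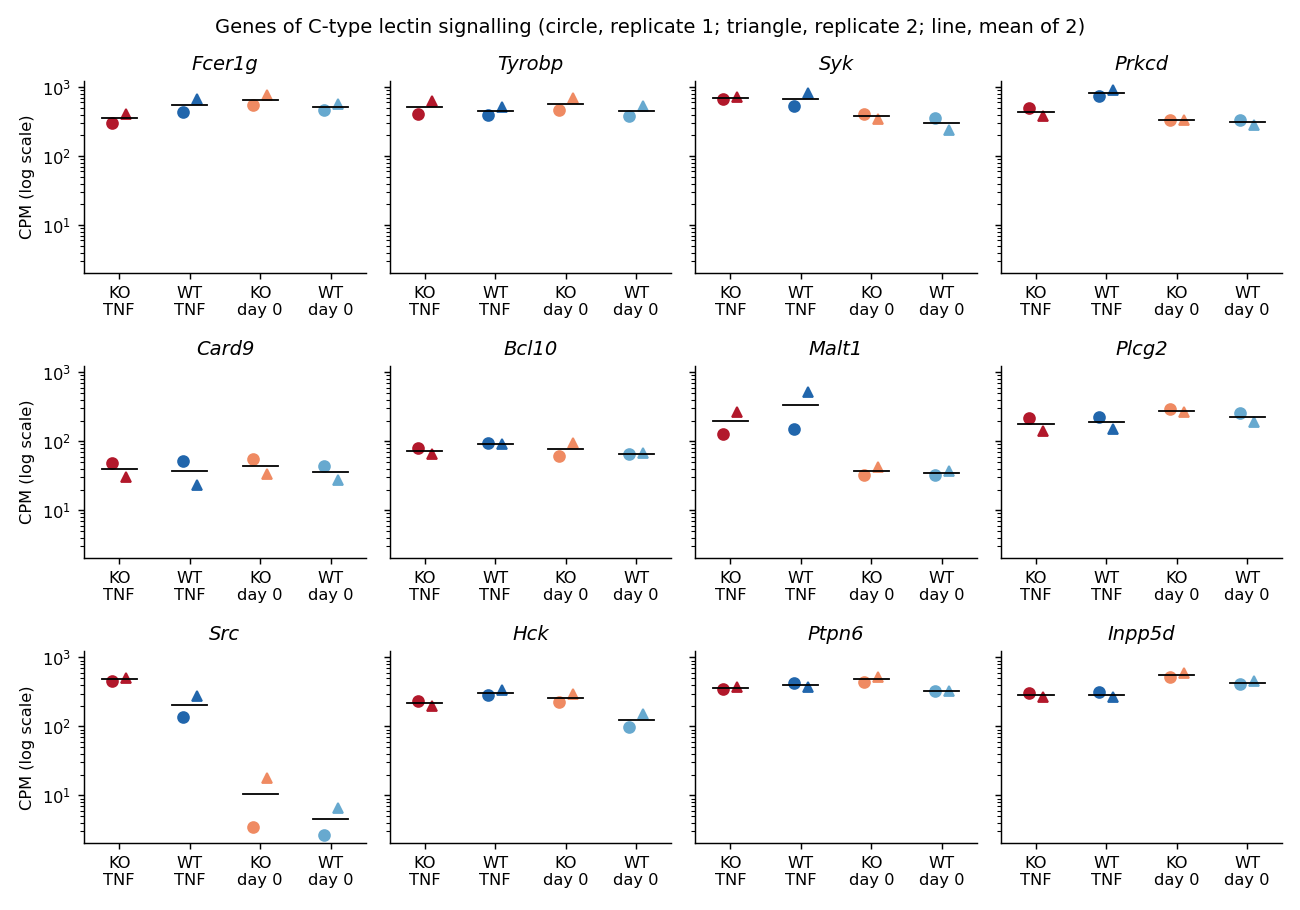
CPM (log axis) of genes of C-type lectin signalling in every library, by group (circles, replicate 1; triangles, replicate 2; lines, the mean of 2), chosen for their place in the pathway. Src and Malt1 are higher in all 4 libraries with TNF, with Malt1 at 129 to 527 CPM against 32.1 to 42.7 CPM at day 0, while the Card9 groups overlap.

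Among 17 phosphatases and other inhibitors, none passed without the block with TNF in either genotype. With the block 1 was higher and 5 lower in knockout BMMs and 2 higher and 2 lower in WT BMMs. For this list and the next, 12.2% of all genes were higher and 13.7% lower in knockout BMMs with the block, and 5.54% and 4.71% in WT BMMs. Without the block 3.09% were higher in knockout and 0.812% in WT BMMs, and 245 and 45 of 12194 genes were lower. Ptpn6, which inhibitory receptors recruit, passed in neither (-0.41 in knockout and 0.31 in WT BMMs) and was named after its value was seen. Inpp5d (SHIP-1), a lipid phosphatase, had 307 and 271 CPM in knockout BMMs with TNF, against 527 and 589 CPM at day 0 (-0.95 ± 0.23, limma adjusted p = 0.0698 without the block and 0.0122 with it). In WT BMMs Inpp5d was also lower without overlap, at 315 and 264 CPM with TNF against 408 and 456 CPM at day 0. Between knockout and WT BMMs after TNF, Pag1 (-1.19 ± 0.25, limma adjusted p = 0.176 without the block and 0.0240 with it) and Cbl (-0.84 ± 0.25, 0.264 and 0.0337) were lower with the block, as were 3.75% of all genes. Of 20 genes known as targets of these receptors, 3 were higher and 1 lower in knockout BMMs with TNF and 2 higher in WT BMMs without the block, and with it 7 were higher and 4 lower in knockout and 8 higher and 2 lower in WT BMMs. Chemokines that attract neutrophils were among them: Cxcl3 had 6.24 in knockout BMMs (limma adjusted p = 0.0111) and 6.87 in WT BMMs (0.0211), and Cxcl2 had 3.57 in knockout BMMs (0.0215) and 4.47 in WT BMMs (0.0255). The chemokines Ccl2 and Ccl4 went the other way. Ccl2, which attracts monocytes, had -4.14 in knockout BMMs (limma adjusted p = 0.0698 without the block and 0.00722 with it) and -3.85 in WT BMMs (0.161 and 0.0184), and Ccl4, the 1 gene lower in knockout BMMs without the block, had -3.04 there (0.0461). Nfatc1, a transcription factor of osteoclasts, had 3.69 in knockout BMMs (0.00717) and 1.41 in WT BMMs (0.170 without the block and 0.0517 with it). Cxcl2, Cxcl3, Ccl2 and Ccl4 are also known targets of TNF itself.

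As background, 12.2% of all genes were higher and 13.7% lower with TNF in knockout BMMs with the block, and 5.54% and 4.71% in WT BMMs. Without it 3.09% were higher in knockout and 0.812% in WT BMMs, and 245 and 45 of 12194 genes were lower. Of 25 transcription factors linked to myeloid genes, 2 were higher and 1 lower with TNF in each genotype without the block, and with it 3 were higher and 9 lower in knockout BMMs and 4 higher and 1 lower in WT BMMs. Those that passed without the block were Relb (2.12 ± 0.30 in knockout and 2.86 ± 0.30 in WT BMMs, limma adjusted p = 0.0169 and 0.0188) and Nfkb2 (1.67 ± 0.35 and 2.38 ± 0.35, 0.0489 and 0.0402), which form the non-canonical NF-κB pathway, and Maf, a macrophage factor (-3.06 ± 0.31 and -2.11 ± 0.31, 0.00706 and 0.0386). Cebpa, a C/EBP factor, had -2.25 ± 0.60 with TNF in knockout BMMs (limma adjusted p = 0.0902 without the block and 0.00503 with it). In WT BMMs Cebpa was also lower without overlap, at 127 and 76.0 CPM with TNF against 253 and 153 CPM at day 0, but did not pass. With the block 4 were lower in knockout than in WT BMMs after TNF, namely Irf8 (-1.52), Hif1a (-1.49), Maf (-1.03) and Cebpb (-1.51), and none was higher. Of all genes 3.75% passed there as lower, and 674 of 12194 as higher. Cebpb, a C/EBP factor, had 196 and 24.6 CPM in knockout BMMs with TNF and 417 and 95.2 CPM in WT BMMs with TNF (limma adjusted p = 0.902 without the block and 0.0236 with it), and was named after its value was seen. It was higher in replicate 1, where the receptors were lower.

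The genes whose log2(CPM + 0.5) followed each receptor most closely over the 8 libraries, among 10455 genes compared, were as follows. Clec4e went with Sod2 (Pearson r = 0.992), the mitochondrial superoxide dismutase, with Abcc5 (0.991) and with Tbcel (0.989). Clec4d went with Acsl4 (0.979), Ccdc50 (0.972) and Ampd3 (0.962), and Clec4n with Aph1b (0.978), Tmem38b (0.977) and Fpr2 (0.972), a formyl peptide receptor. Clec7a went with Psme2b (0.984), Gbp2 (0.969) and Gbp6 (0.961), and Clec5a with Ptpn2 (0.984), Tlr2 (0.966) and Slc4a7 (0.964). Clec12a went with D5Ertd579e (0.987), Spata1 (0.981) and Znrd1as (0.972), and Clec4a2 with Trdmt1 (0.992), Rlim (0.980) and Cxcl10 (0.978). Among the receptors, Clec4n and Clec5a were most alike (0.921) and Clec4e and Clec4a2 least (0.265). These values share their libraries, groups and the difference between replicates, and describe likeness only.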

How the data were processed

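Per the labels' protocols, poly-A transcripts were purified from column-extracted total RNA of BMMs for library preparation. The submitters' processing notes name build mm10 and the tools fastp, HISAT2, HTSeq and edgeR, with versions not given in the sources used here. CPM were deposited by the authors, in 1 table of 24421 genes. Each value was a whole multiple of what 1 read is worth (100% of values, tolerance 0.01), so whole reads could be recovered, at 9855859 to 35653203 per library. The filter of 1 CPM or more in 2 or more libraries kept 12194 genes (49.9%). limma 3.58.1 (R 4.3.3; lmFit and eBayes with trend, two-sided) was run on log2(CPM + 0.5) with group as the only term and 4 residual degrees of freedom, with p-values adjusted by Benjamini-Hochberg over all genes in each of 5 comparisons. Log2 differences on this scale understate the change of low genes. Alternatives were the replicate number as a block (3 residual degrees of freedom), edgeR 4.0.16 and DESeq2 1.42.0 on the recovered reads, a pseudocount of 1, other filters and scalings, the 4 libraries of a comparison alone, and each library left out. The fits were also run on simulated reads, with results not reported here. Every simulated group had the same replicate difference, so that run cannot judge the block where this difference varies between groups.

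The replicate numbers were taken as pairing the libraries: the series' design states 2 independent experiments, though no label ties a number to an experiment, and the differences between replicates 2 and 1 correlated across genes between all 6 pairs of groups (Pearson r 0.577 to 0.805). Whether the experiments used separate mice is not stated, so p-values reflect only the spread between these libraries, which may be technical. The receptors, gene lists and motifs were chosen with earlier results of these data known. Genes named beside the receptors were, per list and comparison, up to 4 with the largest difference among those that passed with or without the block and did not overlap between groups, and, where none passed, up to 2 with the highest mean CPM, with a few others named as such. Not every gene this rule picks is reported here. Those most like a receptor were the 3 with the highest r over the 8 libraries among named genes with a mean of at least 2 CPM. Positions are from GENCODE M21 (23350 of 24421 symbols matched) and promoters from RefSeq, which matched 6 of the 7 receptors.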

Additional observations from a re-analysis of the deposited data

Results flagged for a closer look

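The genotype difference of Clec4n had opposite signs at the 2 times. Its own log2 difference with TNF was above 0 in both genotypes (1.63 in knockout and 4.09 in WT BMMs). With TNF its level was lower in knockout than in WT BMMs in both replicate pairs (log2 difference -0.88, with -0.31 in pair 1 and -1.45 in pair 2), and at day 0 it was higher in the knockout in both pairs (1.58, with 1.75 and 1.41). Knockout and WT libraries overlapped at both times, and neither genotype difference passed (with the block, limma adjusted p = 0.259 with TNF and 0.570 at day 0). The opposite signs themselves were not tested. The difference of the 2 log2 differences was -2.46 ± 1.53 and did not pass (with the replicate block, SE 0.63 and limma adjusted p = 0.139).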

How the results depend on the processing

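Without the block, 1 receptor passed for TNF in each genotype and none in the other comparisons. A pseudocount of 1, no filter, a filter at 5 CPM, TMM scaling and median-ratio scaling left the side of the threshold and the direction of all 35 receptor differences as they were. For TNF in WT BMMs the median over all genes was -0.0083 with TMM and 0.00062 with median-ratio scaling, beside -0.12 in the values as deposited. With the replicate block, 4 receptors passed for TNF in WT BMMs, 2 for TNF in knockout BMMs and 2 for knockout against WT with TNF, and no call of the fit without the block was lost. edgeR with the block gave 5, 2 and 1, with Clec4d added for TNF in WT BMMs. edgeR without it gave 0 for TNF in WT BMMs (Clec4e at adjusted p = 0.0545), DESeq2 gave 2 there (Clec4e and Clec4n), and the 4 libraries of knockout BMMs alone gave 0 (Clec4e at 0.0522). Leaving out 1 library at a time, without or with the block, gave 0 to 2 receptors for TNF in knockout BMMs, 0 to 5 for TNF in WT BMMs, 0 to 3 for knockout against WT with TNF, 0 at day 0 and 0 to 1 for the difference of responses. The day 0 difference of Clec12a (-0.02) changed sign in edgeR (0.19) and DESeq2 (0.20), and the difference of responses of Clec4a2 (-0.01) did in edgeR (0.20), edgeR with the block (0.056) and DESeq2 (0.18). None of these passed, and the cause was not tested. With 1 library left out, small log2 differences also changed sign. For TNF in knockout BMMs the ranges were -0.42 to 0.53 for Clec4d, -1.01 to 1.53 for Clec7a, -0.11 to 1.32 for Clec5a, -0.55 to 1.31 for Clec12a and -0.40 to 1.18 for Clec4a2. For TNF in WT BMMs they were -0.31 to 0.69 for Clec12a and -0.92 to 1.72 for Clec4a2. For knockout against WT with TNF they were -2.07 to 1.55 for Clec7a, -0.67 to 1.0 for Clec12a and -0.10 to 1.05 for Clec4a2. At day 0 they were -0.97 to 0.032 for Clec4e, -0.79 to 1.18 for Clec5a, -0.95 to 0.91 for Clec12a and -0.83 to 1.80 for Clec4a2. For the difference of responses they were -0.74 to 1.12 for Clec12a and -1.33 to 1.31 for Clec4a2. Each receptor had 463 or more reads in every library. For TNF in WT BMMs the SE of Clec7a was 1.55 without the block and 0.32 with it, and that of Clec4n 1.08 and 0.45. What limits precision was not tested.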
